A study of Mus musculus with 12 samples.

Results

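The immunity-related GTPases (IRGs) are large guanine nucleotide-binding proteins that mouse cells make after interferon γ (IFNγ) exposure. IFNγ signals through the kinases JAK1 and JAK2 to the nucleus and raises the transcription factor *Irf1*, and the promoters of IRG genes carry sequence elements that respond to interferons. The proteins fall into 2 classes by the phosphate-binding loop of their GTPase domain. The GMS class has a methionine in this loop and sits on the membranes of the cell itself, where it holds the other class inactive and takes part in autophagy. The GKS class has a lysine at that place and loads onto vacuoles that hold intracellular parasites and bacteria, together with autophagy proteins and ubiquitin ligases. These genes are best known from macrophages and fibroblasts; here they were measured in oligodendrocyte precursor cells (OPCs), the proliferating glia that give rise to myelin-forming oligodendrocytes.

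The members were 10 genes listed by symbol, out of 45563 symbols used. *Irgm1*, *Irgm2* and *Igtp* (also known as Irgm3) are of the GMS class, and *Ifi47* (Irgd), *Tgtp1* and *Tgtp2* (Irgb6), *Gm12250* (Irgb10), *Iigp1* (Irga6), *Gm4841* and *Gm4951* make up the rest. All 10 were found in both tables and passed the filter on low values, which was a mean of 0.1 FPKM or more over all 12 libraries. Because the list was drawn up with the stimulation response known, the rise with cytokines is described without a test, and tests are given for the comparison of genotypes only.

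RNA was sequenced from primary OPCs of wild type (WT) C57BL/6J mice and of TNFR2-/- mice, which lack the second TNF receptor in all cells from the germline on. The OPCs were taken from the cortices of pups (postnatal day 2 to 5 by the labels) with beads against PDGFRα and grown for 3 days in vitro with PDGF-AA and FGF2. They then received vehicle (non-stimulated, NS) or TNF, IFNγ and IL1β at 25 ng/mL each for 3 h (stimulated, St). This gave 12 libraries in 4 groups of 3, WT NS and WT St with the numbers 2, 3 and 4 and TNFR2-/- NS and TNFR2-/- St with the numbers 2, 4 and 5. Since all 3 cytokines were given together, the part of IFNγ alone cannot be told apart.

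Library totals ranged from 26886878 to 30335265 read pairs, called reads below. The targeted gene went against the labels, since *Tnfrsf1b* had 15, 12 and 24 reads in WT NS but 322, 346 and 213 in the libraries labelled TNFR2-/- NS, and 145, 61 and 105 in WT St against 282, 356 and 290 in those labelled TNFR2-/- St. Counts were per gene, and whether these reads lie in the deleted part was not tested. Every direction between genotypes below therefore rests on the labels alone. OPC markers summed to between 8150 and 11200 reads per 1000000 reads of the library (RPM), and all 12 of the list were detected. The 14 microglia markers summed to between 10.2 and 13.2 RPM, and *Tyrobp* was at 0 reads in all 12 libraries. The 8 astrocyte markers summed to 1970 to 2280 RPM in WT NS against 2850 to 4540 in TNFR2-/- NS, and to 1860 to 1940 in WT St against 2870 to 4450 in TNFR2-/- St. The libraries of TNFR2-/- pair 5 stood apart, with 10491 (NS) and 10010 (St) reads of the astrocyte filament gene *Gfap* against at most 1926 in any other library. The stimulated library of that pair also held the highest level of all 10 IRGs, so counts of calls are given with and without the pair.

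The classes are visible in the coding sequences (GENCODE M21, GRCm38). The stretch that codes the phosphate-binding loop is shown because it separates the GMS from the GKS genes, with the codon that gives the class in capitals.
Irgm1: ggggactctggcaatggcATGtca
Irgm2: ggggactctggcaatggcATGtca
Igtp: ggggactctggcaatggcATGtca
Ifi47: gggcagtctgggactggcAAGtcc
Tgtp1: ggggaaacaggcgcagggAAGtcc
Tgtp2: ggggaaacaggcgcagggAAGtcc
Gm12250: ggggagacaggggcagggAAGtcc
The 3 GMS genes share the whole stretch with the codon ATG (methionine), and the 4 others shown have AAG (lysine). *Iigp1*, *Gm4841* and *Gm4951* also have AAG there. Over the longest open reading frame *Irgm2* and *Igtp* were identical at 71.4% of aligned bases, *Iigp1* and *Gm4951* at 88%, and *Irgm1* and *Iigp1* at 51.5%. *Tgtp1* and *Tgtp2* were identical at 99.7%, and 73.1% and 76.8% of their 100-base transcript windows occur in another gene. Their separate values are uncertain for that reason, because reads from one copy can be assigned to the other. *Irgm2* and *Igtp* overlap on the same strand and share 3.01% and 5.16% of their windows.

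Promoters from RefSeq (GRCm38.p6) were matched for the 7 genes on chromosome 11, and *Iigp1*, *Gm4841* and *Gm4951* had no entry. The 250 bases before each start were searched on both strands for TTCNNNGAA, the letters of a gamma-activated sequence, and for GAAA followed after any 2 bases by another GAAA, the letters of an interferon-stimulated response element. The stretches that hold the matches are shown because the members move together with cytokines, with the matches in capitals.
Irgm1, chr11:48871425-48871460, minus strand: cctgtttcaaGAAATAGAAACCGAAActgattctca
Igtp, chr11:58199501-58199541, plus strand: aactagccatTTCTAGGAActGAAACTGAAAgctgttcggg
Irgm2, chr11:58214892-58214932, plus strand: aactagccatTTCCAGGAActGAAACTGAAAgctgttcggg
Tgtp1, chr11:48992304-48992344, minus strand: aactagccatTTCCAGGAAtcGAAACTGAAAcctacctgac
Tgtp2, chr11:49064263-49064303, minus strand: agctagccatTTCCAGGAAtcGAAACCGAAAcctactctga
Gm12250, chr11:58183742-58183816, plus strand: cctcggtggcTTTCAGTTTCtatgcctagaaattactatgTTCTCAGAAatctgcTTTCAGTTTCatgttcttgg
*Igtp*, *Irgm2*, *Tgtp1*, *Tgtp2* and *Gm12250* held both motifs, *Irgm1* held 2 overlapping matches to the second alone, and *Ifi47* held neither in this window. In *Gm12250* the second motif was read on the opposite strand. Of 32851 promoters, 7.02% held the first motif, 2.98% the second and 0.332% both. The stretches of *Igtp* and *Irgm2*, and those of *Tgtp1* and *Tgtp2*, resemble each other and are not independent. RefSeq starts can differ from the gene limits above, as in *Gm12250*, whose RefSeq start lies before the GENCODE gene, and in *Irgm2*, whose RefSeq start lies within it.

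The 10 genes lie in clusters on 2 chromosomes of GRCm38. On chromosome 11, *Irgm1* (ENSMUSG00000046879; 48861968 to 48871683, minus strand), *Tgtp1* (ENSMUSG00000078922; 48985327 to 48994172, minus), *Tgtp2* (ENSMUSG00000078921; 49057194 to 49064206, minus) and *Ifi47* (ENSMUSG00000078920; 49076587 to 49096974, plus) form one cluster. *Gm12250* (ENSMUSG00000082292; 58187739 to 58189012, plus), *Igtp* (ENSMUSG00000078853; 58199556 to 58207591, plus) and *Irgm2* (ENSMUSG00000069874; 58199618 to 58222782, plus) form another. On chromosome 18, *Gm4951* (ENSMUSG00000073555; 60212080 to 60247820, plus), *Gm4841* (ENSMUSG00000068606; 60268305 to 60273272, minus) and *Iigp1* (ENSMUSG00000054072; 60376027 to 60392634, plus) lie in a further cluster. The annotation lists *Gm12250* as a processed pseudogene, although it holds an open reading frame of 1254 bases.

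At rest the 10 IRGs had at most 734 reads in a library (*Irgm1*), and most had far fewer. After 3 h of cytokines all 10 had at least 1621 per library, in both genotypes and with no overlap between NS and St libraries. Their sum was 9.93 to 12.2 RPM in WT NS and 5120 to 5500 in WT St, which was 0.512 to 0.55% of all reads. In the libraries labelled TNFR2-/- it went from 16.7, 28.8 and 35.7 to 5560, 5470 and 7750 RPM. In bulk RNA, a change in the number of responding cells and a change in RNA per cell cannot be told apart. All 10 were called higher in each genotype, where 4.58% (WT) and 5.41% (TNFR2-/-) of the 18081 genes tested were called higher, and nothing is read from this since the rule used the same contrast. Genes were called where the adjusted p did not exceed 0.05, the change was 1.5-fold or more and the mean over all 12 libraries reached 1 FPKM. NS and St libraries did not overlap, with the St libraries higher, in 13.7% (WT) and 12.7% (TNFR2-/-) of all genes tested.

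**Figure D1:**
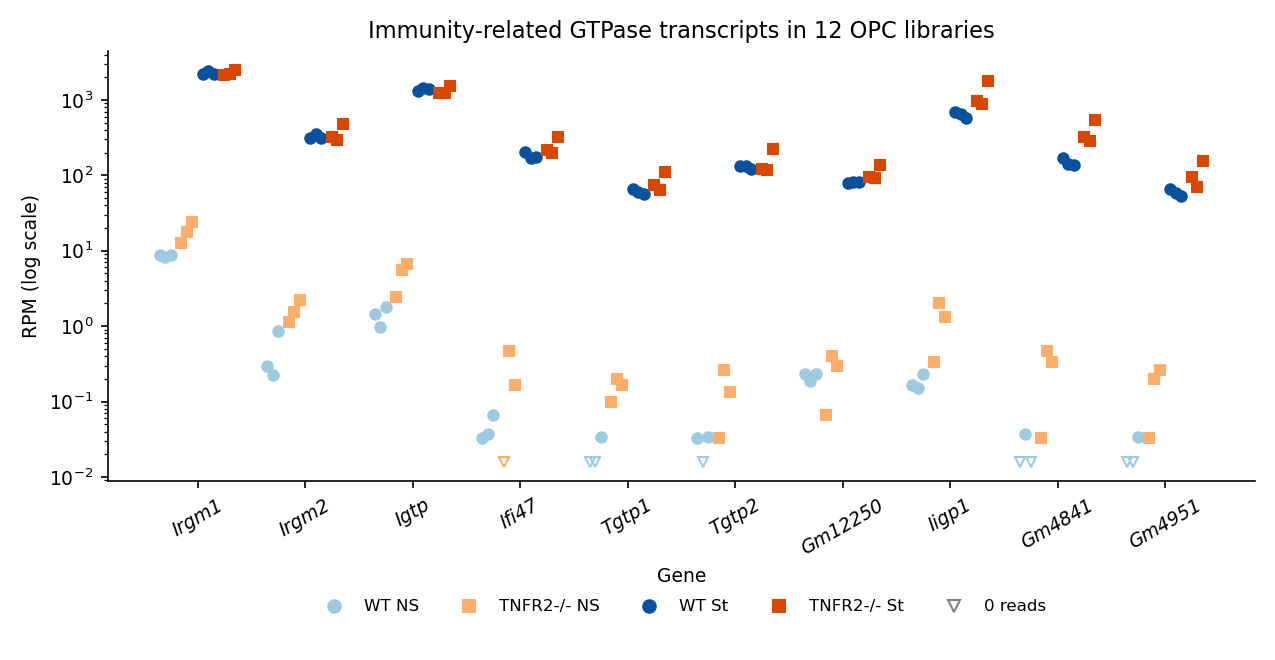
RPM (log axis) of the 10 IRG genes in each of the 12 libraries, as circles for WT and squares for TNFR2-/- and in light colors for NS and dark colors for St. Open triangles at the bottom mark libraries with 0 reads, and in every gene all 6 St libraries lie far above all 6 NS libraries.

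The GMS genes made most of the IRG reads at rest. *Irgm1*, which controls the GKS proteins and takes part in autophagy, had 261, 224 and 267 reads in WT NS and 66405, 72199 and 66348 in WT St. In the libraries labelled TNFR2-/- it had 378, 537 and 734 (NS) and 63664, 66740 and 70821 (St). The resting libraries of the genotypes did not overlap, whereas the stimulated ones did. The ratio of RPM, St over NS, was 263 in WT (95% counting interval 244 to 282) and 124 in TNFR2-/- (119 to 131). These exact intervals cover counting error only, not the spread between libraries.

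*Igtp*, a GMS protein of the endoplasmic reticulum and lipid droplets, had 43, 26 and 54 reads in WT NS and 39402, 43599 and 42087 in WT St. The libraries labelled TNFR2-/- held 73, 169 and 201 (NS) and 37137, 37541 and 44091 (St). The order was that of *Irgm1*, with higher resting libraries in TNFR2-/- and overlapping stimulated ones. The ratio was 980 (821 to 1180) in WT and 273 (249 to 301) in TNFR2-/-.

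*Irgm2*, the GMS protein of the Golgi, had 9, 6 and 26 reads in WT NS and 9292, 10489 and 9475 in WT St. It had 34, 46 and 67 (NS) and 9563, 9000 and 13905 (St) in the libraries labelled TNFR2-/-. Pair 5 alone lay above all WT St libraries. The ratio was 687 (507 to 958) in WT and 225 (192 to 267) in TNFR2-/-.

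The GKS genes of chromosome 11 were near 0 reads at rest. *Ifi47* had 1, 1 and 2 reads in WT NS and 0, 14 and 5 in TNFR2-/- NS, then 6038, 5100 and 5254 in WT St and 6440, 5968 and 9353 in TNFR2-/- St. *Tgtp1*, whose protein loads onto parasite vacuoles, had 0, 0 and 1 reads in WT NS and 3, 6 and 5 in TNFR2-/- NS, then 1958, 1815 and 1689 in WT St and 2221, 1944 and 3207 in TNFR2-/- St. At rest *Tgtp1* did not overlap between genotypes, whereas *Ifi47* did, and the stimulated libraries of both overlapped. *Tgtp2*, the copy of *Tgtp1*, had 1, 0 and 1 reads in WT NS and 1, 8 and 4 in TNFR2-/- NS, then 3959, 3983 and 3650 in WT St and 3620, 3573 and 6484 in TNFR2-/- St. *Gm12250*, whose protein acts on bacterial membranes, had 7, 5 and 7 reads in WT NS and 2, 12 and 9 in TNFR2-/- NS, then 2385, 2440 and 2486 in WT St and 2830, 2777 and 3890 in TNFR2-/- St. Unlike its neighbors *Igtp* and *Irgm2*, *Gm12250* overlapped between genotypes at rest and did not overlap after cytokines. The St over NS ratio was 3950 (1540 to 14500) for *Ifi47* in WT and 1170 (748 to 1940) in TNFR2-/-. For *Gm12250* it was 371 (237 to 616) and 421 (280 to 664). With 1 and 2 reads in all of WT NS, the ratios of *Tgtp1* (5260, 944 to 208000) and *Tgtp2* (5580, 1550 to 46100) are known only within these wide intervals.

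The genes of chromosome 18 also had few reads at rest, with more of *Iigp1* than of the others, and their stimulated libraries did not overlap between genotypes. *Iigp1*, the GKS protein best studied for its oligomers on parasite vacuoles, had 5, 4 and 7 reads in WT NS and 10, 61 and 40 in TNFR2-/- NS, then 20968, 19416 and 17232 in WT St and 29066, 27104 and 50560 in TNFR2-/- St. *Gm4841* had 0, 1 and 0 reads in WT NS and 1, 14 and 10 in TNFR2-/- NS, then 5108, 4227 and 4174 in WT St and 9543, 8561 and 15621 in TNFR2-/- St. *Gm4951* had 0, 0 and 1 reads in WT NS and 1, 6 and 8 in TNFR2-/- NS, then 1965, 1745 and 1621 in WT St and 2890, 2129 and 4380 in TNFR2-/- St. In all 3 genes each stimulated library labelled TNFR2-/- lay above each WT St library. The St over NS ratio of *Iigp1* was 3470 (2140 to 6070) in WT and 980 (814 to 1190) in TNFR2-/-. The ratios of *Gm4841* (1380, 931 to 2130) and *Gm4951* (639, 387 to 1140) can be placed in TNFR2-/-, while in WT they rest on 1 resting read each.

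**Figure D2:**
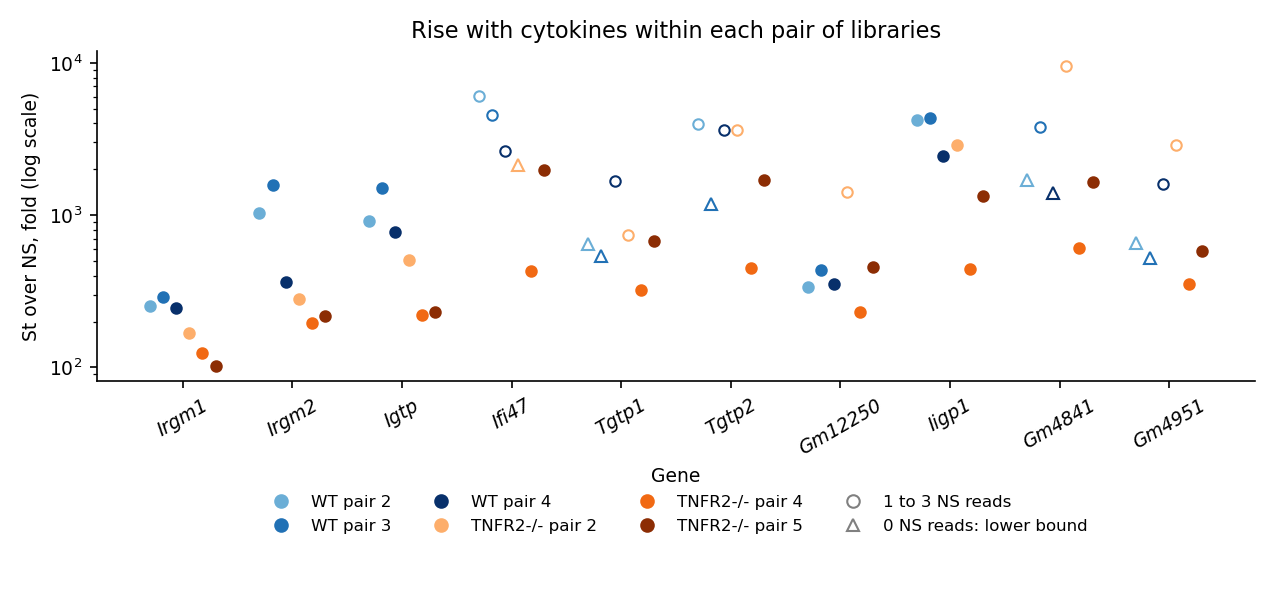
St over NS ratio of RPM (log axis) for each IRG gene within each of the 6 pairs of libraries that share a genotype and a number. Open circles rest on 1 to 3 resting reads and open triangles are lower bounds set against 3 reads where the resting library had none. *Irgm1* runs from 102-fold in TNFR2-/- pair 5 to 289-fold in WT pair 3, and the WT pairs lie above the TNFR2-/- pairs in *Irgm1*, *Irgm2* and *Igtp*.

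The make-up of the IRG pool shifted as it grew. The GMS genes made 94.8 to 95.9% of IRG reads in WT NS and 86.1 to 96.4% in TNFR2-/- NS. In WT St they made 73.1 to 76.6%, and in TNFR2-/- St 57.9 to 68.5%. *Irgm1* alone fell from 73 to 83.9% of IRG reads in WT NS to 42.2 to 43.8% in WT St. The share of GMS genes was thus lower in each stimulated library labelled TNFR2-/- than in each WT St library, and this share uses the same reads as the values above.

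Levels can be compared between genes only per length, here as RPM per kb of annotated exon. In WT St *Igtp* was highest (686 ± 35.6, SD, n = 3), followed by *Irgm1* (391 ± 19.8), *Iigp1* (110 ± 10.7), *Irgm2* (87.9 ± 5.92), *Ifi47* (73.5 ± 6.71), *Gm12250* (63.6 ± 1.32), *Gm4841* (52.8 ± 6.12), *Tgtp2* (43.7 ± 2.14), *Gm4951* (22.3 ± 2.19) and *Tgtp1* (18.9 ± 1.4). On this scale no neighbors in the order overlapped. In TNFR2-/- St *Igtp* (662 ± 84.9) and *Irgm1* (390 ± 31.1) were again highest and apart, *Iigp1* (208 ± 82.5) and *Gm4841* (134 ± 50) came next, and each neighbor from *Iigp1* down to *Tgtp1* (26 ± 7.82) overlapped with the one after it. The order at the top depends on the length used. Per kb of the longest open reading frame *Irgm1* (1850 ± 93.3) was above *Igtp* (1090 ± 56.6) in WT St, since the annotated exons of *Irgm1* cover 5810 bases against 2022 in *Igtp*.

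**Figure D3:**
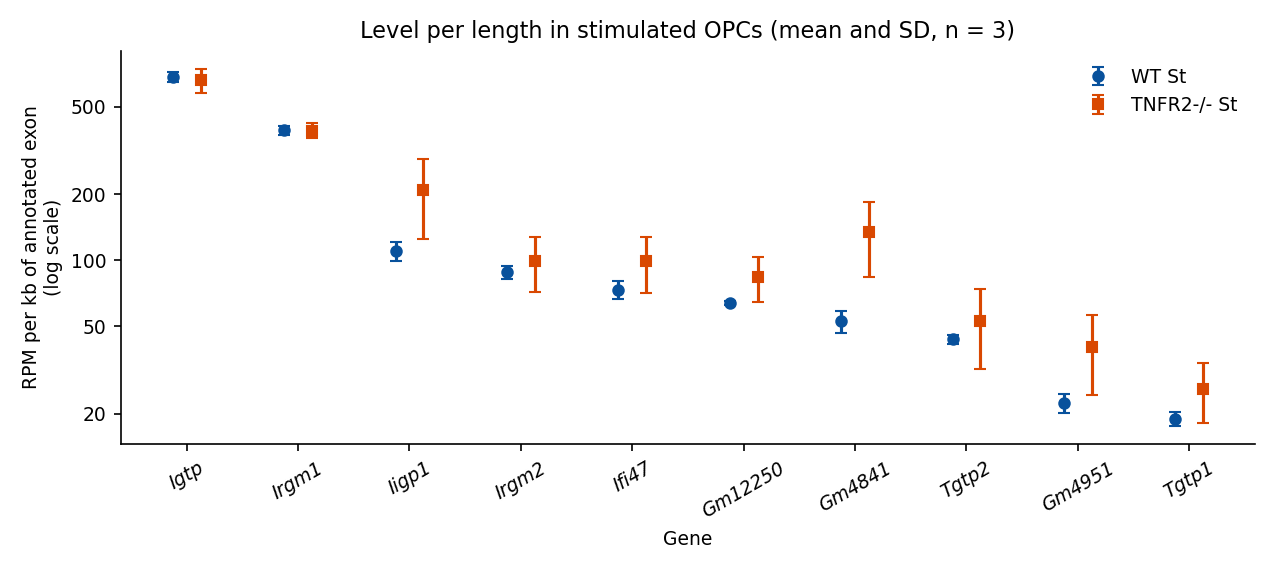
RPM per kb of annotated exon (log axis) of each IRG gene in stimulated OPCs, mean and SD of 3 libraries, circles for WT St and squares for TNFR2-/- St, ordered by the WT St mean. *Igtp* and *Irgm1* stand highest in both genotypes, and *Iigp1*, *Gm4841* and *Gm4951* show the widest gaps between genotypes.

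Whether the loss of TNFR2 changes the IRGs at rest was asked by comparing TNFR2-/- NS with WT NS. In the libraries labelled TNFR2-/- NS 9 of 10 IRGs had a higher mean and 6 were called higher, where 1.62% of all genes tested were called higher. The median log2 fold change of the 10 was 1.52, against 0.04 over all genes tested. The libraries of *Irgm1*, *Irgm2*, *Igtp*, *Iigp1* and *Tgtp1* did not overlap, as in 19.9% of all genes in this direction. These are differences between low levels, as the reads above show.

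By limma on log2(FPKM + 0.5) with Benjamini-Hochberg adjustment over all genes tested, *Irgm1* was higher by 1.02 ± 0.18 (log2, SE; adjusted p = 0.0156), *Irgm2* by 1.86 ± 0.4 (0.023) and *Igtp* by 1.69 ± 0.33 (0.0188). In RPM these were ratios of 2.1 (counting interval 1.93 to 2.29), 3.43 (2.41 to 4.98) and 3.45 (2.82 to 4.25). All 3 GMS genes were thus called. Of the GKS genes of chromosome 11 *Tgtp1* was called (2.05 ± 0.29, limma adjusted p = 0.00924), on 14 reads against 1, while *Ifi47* (0.93 ± 0.72, 0.419), *Tgtp2* (1.36 ± 0.45, 0.0756) and *Gm12250* (-0.02 ± 0.38, 0.985) were not. On chromosome 18 *Gm4841* (2.34 ± 0.62, limma adjusted p = 0.0394) and *Gm4951* (1.75 ± 0.47, 0.0412) were called, on 25 and 15 reads against 1 each, and *Iigp1* was not (0.77 ± 0.29, 0.104). The pseudocount shrinks the value of *Iigp1*, whose ratio of reads was 6.64 (3.92 to 12). The limit of 1 FPKM for a call used the mean over all 12 libraries, St included, so it did not screen out low values at rest. For *Gm4951* that mean was 465 FPKM, against 0.125 in WT NS and 1.85 in TNFR2-/- NS.

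The count of calls at rest moved with single libraries, and so did that over all genes. The count was 6 with all libraries, 1 when WT NS replicate 3 was left out, 2 when this was WT NS replicate 4 and 2 when it was TNFR2-/- NS replicate 5, against 4 to 8 without any other library. In those 3 settings 39, 38 and 56 of all genes were called higher, against 293 with all libraries. The IRG count did not always move with the count over all genes. Without TNFR2-/- NS replicate 2 it was 8, with 150 of all genes called higher. Without TNFR2-/- NS replicate 4 it was 4, with 563 of all genes. The IRG count was 2 without both libraries of TNFR2-/- pair 5 (141 of all genes). It was 0 when only the 6 NS libraries entered the fit (7 of all genes), with limma adjusted p of 0.0833 to 0.138 for the 6 genes. In all of these settings the 6 genes stayed higher in TNFR2-/- NS, and *Irgm1* ranged from 0.75 to 1.26 over all alternatives. All 8 astrocyte markers had a higher mean in TNFR2-/- NS as well (2 called, *Gja1* and *Fgfr3*), and their part in the result was not tested. Markers of microglia, brain cells with known IRG responses, summed to 11.3 to 11.6 RPM in TNFR2-/- NS, within the 10.6 to 13.2 of WT NS.

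**Figure D4:**
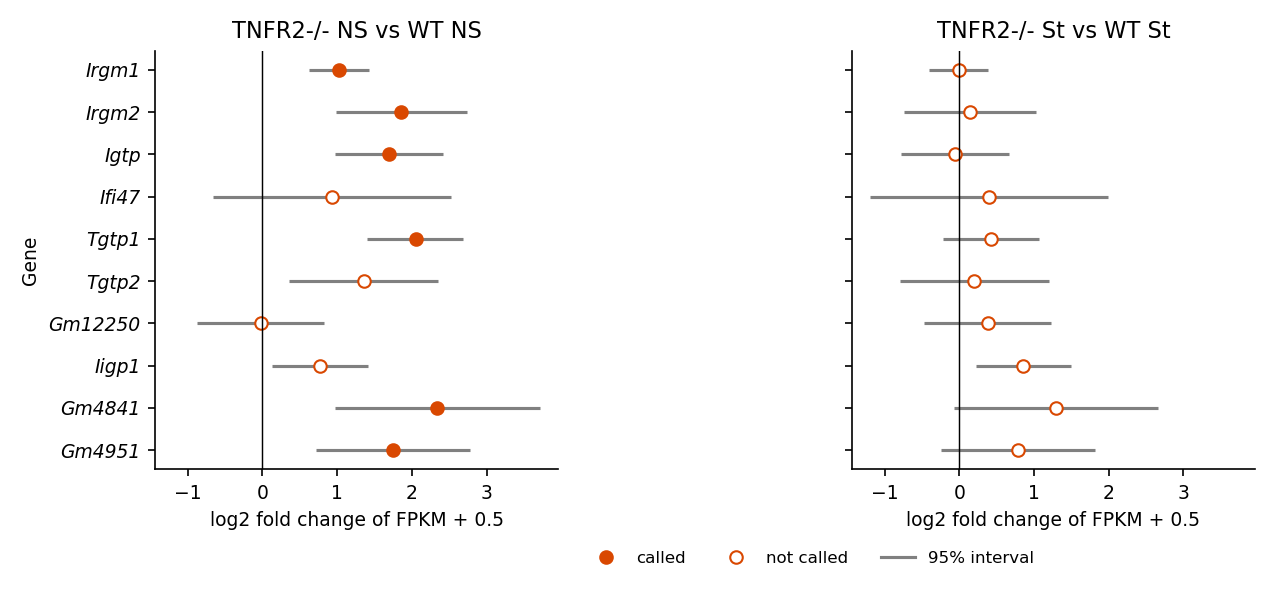
Difference between genotypes in log2(FPKM + 0.5) of each IRG gene, TNFR2-/- minus WT, with its 95% interval from limma, in NS libraries on the left and St libraries on the right. Filled points are called and open points are not, with 6 filled points at rest and none after cytokines, where *Iigp1* alone has an interval above 0.

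After cytokines the genes with the largest differences between genotypes were those of chromosome 18, and none of the IRGs passed the test. No IRG was called between TNFR2-/- St and WT St, where 1.18% of all genes were called higher, and 1 of 10 had an unadjusted p under 0.05 by limma, as did 4820 of all 18081 genes tested. The median log2 fold change of the 10 was 0.39, against 0 over all genes tested. The libraries of *Iigp1*, *Gm4841*, *Gm4951* and *Gm12250* did not overlap and were higher in TNFR2-/- St, as in 15.4% of all genes.

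The GMS genes had small differences, *Irgm1* of -0.01 (95% interval -0.41 to 0.39, limma adjusted p = 0.989), *Irgm2* of 0.14 (-0.74 to 1.03, 0.847) and *Igtp* of -0.06 (-0.78 to 0.66, 0.93). The direction of *Irgm1* turned with the scaling of the libraries, being 0.01 with median-of-ratios scaling and 0.07 with quantile normalization. The GKS genes of chromosome 11 lay between 0.2 (*Tgtp2*, -0.79 to 1.2) and 0.42 (*Tgtp1*, -0.22 to 1.07), with *Ifi47* at 0.4 and *Gm12250* at 0.38.

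On chromosome 18, *Gm4841* was higher by 1.29 ± 0.62 (limma adjusted p = 0.208), *Iigp1* by 0.85 ± 0.29 (0.0959) and *Gm4951* by 0.78 ± 0.47 (0.311), and none was called. In this fit the spread is estimated over all 4 groups, including NS libraries with a handful of reads. With voom on the recovered reads, which weights each value by its depth, *Gm4841* (limma adjusted p = 0.00912) and *Iigp1* (0.038) were called. That setting called 282 of all genes higher, against 214 in the main fit. With the 6 St libraries alone neither was called, at limma adjusted p of 0.0728 and 0.122. Why these fits differ was not tested. Over all alternatives the adjusted p ranged from 0.00912 to 0.462 for *Gm4841* and from 0.038 to 0.276 for *Iigp1*. As ratios of RPM, *Gm4841* was 2.53 (counting interval 2.48 to 2.58), *Iigp1* 1.88 (1.86 to 1.9) and *Gm4951* 1.79 (1.73 to 1.85), against 0.995 (0.989 to 1) for *Irgm1*.

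Grouped by chromosome, which was chosen after these values were seen and so has no test, the mean log2 RPM of the 3 genes on chromosome 18 minus that of the 7 on chromosome 11 was -0.48, -0.68 and -0.71 in the WT St libraries. In the TNFR2-/- St libraries it was 0.12, -0.06 and 0.35. The groups did not overlap, with or without pair 5, which held 0.35. Within 500000 bases of the members on chromosome 18, 10 other genes reached a mean of 1 FPKM. Of these, 6 were higher in TNFR2-/- St without overlap, as were 15.4% of all genes, 2 were lower and 2 overlapped. One of the 10, *F830016B08Rik*, another gene of the IRG family, was called (1.62 ± 0.19, limma adjusted p = 0.00554). It had 802, 725 and 606 reads in WT St and 1718, 2180 and 3018 in TNFR2-/- St. Also called were the processed pseudogene *Gm5970* (0.97 ± 0.17, limma adjusted p = 0.0184) and *Smim3* (0.72 ± 0.18, 0.0484), which is not known as an IRG. Over all genes tested 1.18% were called higher, and whether the region as a whole differs was not tested. Astrocyte markers moved in the same direction (8 of 8 with a higher mean, 2 called), and the OPC markers *Pdgfra* and *Lhfpl3* were called lower. Their part in the chromosome 18 values was not tested.

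**Figure D5:**
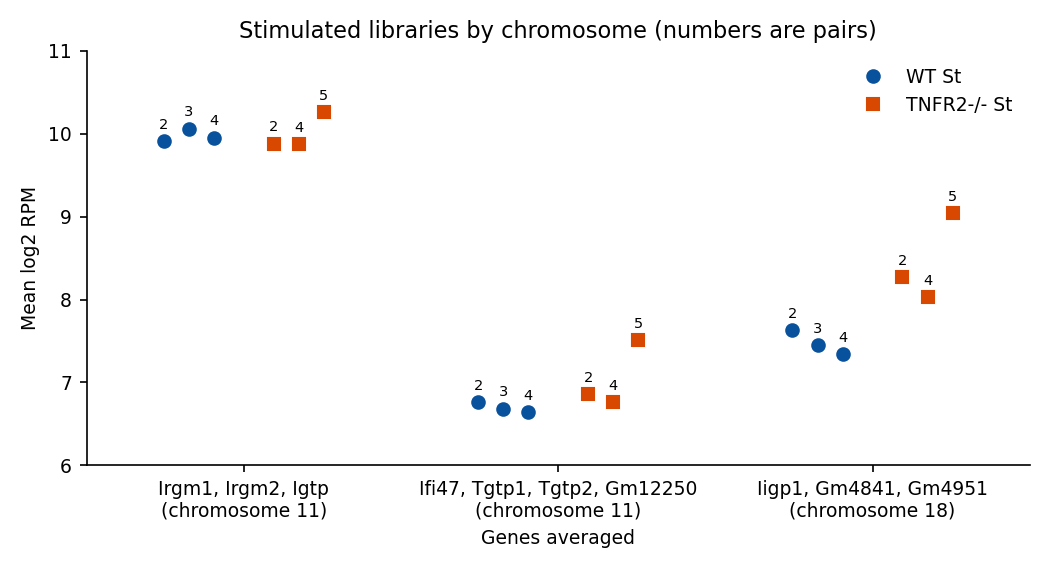
Mean log2 RPM of the GMS genes (left), the GKS genes of chromosome 11 (middle) and the genes of chromosome 18 (right) in each stimulated library, circles for WT St and squares for TNFR2-/- St, each with the number of its pair. On the right the TNFR2-/- libraries (8.03 to 9.04) lie above the WT libraries (7.34 to 7.63). In the middle the TNFR2-/- libraries (6.76 to 7.51) also lean higher and meet the WT range (6.64 to 6.76) at its top. On the left the TNFR2-/- range of 9.87 to 10.26 includes the WT range of 9.91 to 10.06.

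Whether the rise with cytokines itself differed between genotypes was tested as the interaction. No IRG was called, as against 1 of all genes tested (0.00553%). This fit used group means and did not pair the NS and St libraries of a number. With them paired within each genotype no IRG was called either, and again 1 of all genes was. At an unadjusted p under 0.05 by limma 4 of 10 passed, as did 1437 of all 18081 genes, and the 4 had a smaller rise in the libraries labelled TNFR2-/-, namely *Irgm1* (-1.02 ± 0.25, adjusted p = 0.493), *Irgm2* (-1.71 ± 0.56, 0.533), *Igtp* (-1.75 ± 0.46, 0.496) and *Tgtp1* (-1.63 ± 0.41, 0.496). These are the genes with higher resting values and overlapping stimulated ones, and the interaction uses the same NS libraries as the comparison at rest. *Iigp1* was at 0.08 ± 0.41 (limma adjusted p = 0.987, 0.821 to 1 over its alternatives), a value that the pseudocount shrinks and that turned to -0.75 with a pseudocount of 0.1 and to -1.46 with voom.

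Most listed genes of the pathway that leads to the IRGs also rose with cytokines. The list was chosen with earlier results of these data known, so its counts and p-values for that rise are a description and not independent support. Of 24 genes of IFNγ signaling, 17 were called higher in WT St and 17 in TNFR2-/- St, against 4.58% and 5.41% of all genes. The median log2 fold change of the list was 1.74 in WT and 1.75 in TNFR2-/-, against -0.05 and -0.11 over all genes tested. The largest rises were of *Nlrc5*, the activator of MHC class I genes (8.24 ± 0.19 in WT, 7.29 ± 0.19 in TNFR2-/-), and of the transcription factors *Irf8* (8.15 ± 0.14 and 7.83 ± 0.14) and *Irf1* (7.28 ± 0.13 and 6.69 ± 0.13), with limma adjusted p of at most 2.23e-09 in each. Between genotypes at rest *Irf1* (0.66 ± 0.13, limma adjusted p = 0.0188) and *Nlrc5* (0.85 ± 0.19, 0.0242) were called higher in TNFR2-/- NS, and no gene of the list was called after cytokines.

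Of 12 further genes of the IRG family 11 were in the tables and 9 passed the filter. With cytokines 6 were called higher in each genotype, beside the same 4.58% and 5.41%. This list and the next were also chosen with earlier results known, so their rise is likewise a description. *Gm12185* rose most (9.58 ± 0.34 in WT, 8.9 ± 0.34 in TNFR2-/-), followed by *9930111J21Rik2* (7.16 ± 0.54 and 7.94 ± 0.54). The third was *Gm5431* in WT (5.72 ± 0.35) and *F830016B08Rik* in TNFR2-/- (5.56 ± 0.19). This order is that of log2(FPKM + 0.5) and differs from the order by reads. In WT *F830016B08Rik* (3.96 ± 0.19) had 0 reads at rest and 802, 725 and 606 after cytokines. The WT St libraries held 93, 181 and 115 reads of *Gm5431* and 168, 313 and 191 of *9930111J21Rik2*. Of the family members that interferon is not known to induce, *Irgq* had 1370, 1223 and 1419 reads in WT NS, and *Irgc1*, a testis gene, had at most 1 read in each NS library. Of 24 tested genes for the autophagy conjugation machinery and vacuole ubiquitin marks, 3 were called higher in each genotype, where 4.58% (WT) and 5.41% (TNFR2-/-) of all genes were. They were the ubiquitin ligases *Trim21* (4.57 ± 0.14 in WT, 4.08 ± 0.14 in TNFR2-/-) and *Rnf213* (3.56 ± 0.18 and 3.95 ± 0.18) and the damaged-vacuole lectin *Lgals8* (0.99 ± 0.1 and 0.83 ± 0.1). The median of this list was 0.1 in WT and -0.07 in TNFR2-/-, against -0.05 and -0.11 over all genes tested. *Trim21* was called higher in TNFR2-/- NS (0.66 ± 0.14, limma adjusted p = 0.0239) and *Rnf213* in TNFR2-/- St (0.81 ± 0.18, 0.0364).

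The genes whose profile over the 12 libraries was nearest to the mean of the 10 IRGs were *Cxcl10* (root mean square difference 0.28 on the log2 scale), *Gm12185* (0.32), *BC023105* (0.55), *Cxcl1* (0.65) and *Cd274* (0.66). Members themselves lay between 0.27 (*Gm4951*) and 1.06 (*Gm4841*) from that mean. *Cxcl10* and *Cxcl1* are chemokines for T cells and neutrophils, *Cd274* codes the T cell ligand PD-L1, and *BC023105* is a processed pseudogene on chromosome 18 near *Iigp1*. When profiles were scaled to the same spread, 3 of the 5 genes remained, and *BC023105* and *Cxcl1* were not among them.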

How the data were processed

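RNA of 12 OPC libraries was sequenced, on a BGISeq-500 by the methods and with Illumina protocols by the labels. Reads had been trimmed (Trim Galore), mapped to GRCm38 and counted per gene (STAR), EdgeR served for the study's own calls, and the authors deposited FPKM per gene symbol in separate NS and St tables of 45792 entries. Symbols used more than once (99, with 229 entries) were left out. The deposited FPKM were whole multiples of 1 read in a library, so reads were recovered for all 26636 symbols above 0 in at least 2 libraries (tolerance 0.02 reads). The lengths behind the FPKM are unrelated to the annotation, so levels between genes use exons of GENCODE M21. No source used here says whether libraries came from separate animals, and p-values measure the spread between libraries.

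log2(FPKM + 0.5) was fitted with limma 3.58.1 (R 4.3.3) as 4 group means with a mean-dependent prior, over 18081 genes whose mean reached 0.1 FPKM, with Benjamini-Hochberg adjustment. Counting intervals are exact, at 95%. Members and lists were chosen with earlier results of these data known. Genes named were all members, up to 3 called genes with the largest rise and fall per pathway list, those called between genotypes, the 5 nearest profiles, marker genes at 0 or with the most reads, and *Tnfrsf1b*. *Gfap*, the markers called between genotypes, *Irgq*, *Irgc1* and the neighbors on chromosome 18 were chosen after their values were seen. Results for some genes are not reported here.

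Pairing was checked over 13554 genes on deviations from the group means. NS and St libraries of one genotype and number had correlations of 0.34 to 0.65 (6 pairs), against -0.45 to 0.09 for other numbers (12 pairs), so numbers pair libraries within a genotype. For the same number in both genotypes the range was -0.08 to 0.2 (8 pairs). On simulated data with 100 genes changed 2-fold and 100 changed 4-fold among 18081, TNFR2-/- St against WT St called 79 and 99 with 2 unchanged genes, and the interaction 40 and 98 with 1. All genes had a dispersion of 0.02, and only TNFR2-/- St was changed, in genes well covered by reads after cytokines. The rates do not carry over to IRGs with few resting reads or a wider spread. The comparison at rest was not simulated. Alternatives were other pseudocounts, filters and scalings, limma without the trend, library weights, adjusted p alone, a replicate block, each library left out, voom on the recovered reads and the 6 libraries compared. Python 3.11.15, Biopython 1.88 and matplotlib 3.10.9 were used.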

Additional observations from a re-analysis of the deposited data

How the results depend on the processing

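Of 710 values of single IRGs between genotypes and in the interaction under other settings, 635 kept direction and side of the threshold, 46 lost and 5 gained a call and 24 changed direction. At rest 6 IRGs were called, with 293 of all genes called higher. With voom on recovered reads this was 2 (336 of all genes), and with only the 6 libraries compared 0 (7 of all genes). It was 2 without TNFR2-/- pair 5 (141 of all genes, chosen after seeing the data) and 1 to 8 with each library left out. After cytokines the number of IRGs called was 2 with voom, with 282 of all genes called higher. It was 0 otherwise, with 214 of all genes in the main fit, and the cause was not tested. The rise with cytokines kept its sign throughout, but 25 of 480 values moved by more than 1 SD, and 16 of 18 levels per length moved with the coding length.

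With the replicate block across all 12 libraries the number called at rest was 4, with 236 of all genes called higher. For comparisons of genotypes that setting joined libraries of the same number in both genotypes, whose correlations were only -0.08 to 0.2. It is thus no check of the pairing found within a genotype. In that setting *Irgm2* (-0.23) and *Tgtp2* (-0.11) turned negative after cytokines. Without both libraries of pair 5 these were -0.07 and -0.11, and without TNFR2-/- St replicate 5 alone -0.07 and -0.11 (up to 0.28 and 0.36 without TNFR2-/- St replicate 4). *Irgm1* after cytokines was 0.01 with median-of-ratios scaling, 0.07 with quantile normalization, and 0.03, 0.04 and 0.01 without WT St replicate 3 or TNFR2-/- St replicates 2 or 4. *Gm12250* at rest was 0.02 with pseudocount 1, 0.02 without WT NS replicate 2 or 4 and between -0.4 and 0.55 with single TNFR2-/- NS libraries left out (replicates 4 and 2), and *Ifi47* -0.13 with library weights. In the interaction *Iigp1* was -0.75 with pseudocount 0.1, -1.46 with voom, -0.22 without TNFR2-/- NS replicate 2 or TNFR2-/- St replicate 5 and -0.16 without pair 5. *Ifi47* was 0.43 with library weights and 0.33 without TNFR2-/- NS replicate 4 (lowest -1.58 with replicate 2 left out), and *Gm12250* lay between -0.17 and 0.78 with replicate 2 or 4 of that group left out. At rest the GKS genes held at most 61 reads in a library, which limits what their differences can show.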
